A study of Mus musculus with 46 samples.

Results

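The strong constant peaks are the stretches of open chromatin in AgRP neurons that gave a high ATAC-seq signal and nearly the same mean in fed, fasted and leptin-treated mice. They were chosen on measured values, as the peaks whose log2 CPM (CPM, reads of a peak scaled to the library's depth, as deposited) averaged at least 4 over the 6 libraries and whose 3 differences between state means (fasted and fed, leptin and fasted, leptin and fed) were each under 0.25 in absolute value. Of 90196 peaks, 3832 met both conditions. Another 11599 peaks were as strong but varied by more, 4586 were constant but weaker, and the remaining 70179 were neither. The level and the state differences of the 3832 peaks are therefore a description, and only measures from other libraries were tested.

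The study asked how feeding state and leptin act on AgRP neurons of the arcuate nucleus, in male NuTRAP-AgRP mice of 6 to 11 weeks, in which AgRP-IRES-Cre switches on a GFP-tagged ribosomal subunit and a tagged nuclear envelope protein in cells that express Agrp. Fed mice ate ad libitum and received PBS, fasted mice were fasted overnight and received PBS, and leptin-treated mice were fasted overnight and received leptin. GFP-positive nuclei were sorted from pooled arcuate nuclei for ATAC-seq, which cuts open DNA with a transposase, and each state had 2 libraries of 8263234 to 17190963 counts in peaks, the shallowest being fed replicate 1. Other libraries gave 3 further data sets, namely ATAC-seq of nuclei sorted as positive or negative for AgRP from fed, untreated mice (2 libraries each), RNA pulled down with the tagged ribosomes (TRAP) from pools of 4 arcuate nuclei (3 fed, 4 fasted and 4 leptin-treated samples), and CUT&RUN peak lists of CTCF and IRF3. All ATAC-seq and TRAP groups used here came from mice with the Cre and NuTRAP alleles, so that "AgRP-positive" means cells in which Cre had acted. The CUT&RUN samples came from fed, untreated males, and the IRF3 sample from the IRF3-2D model, in which a constitutively active IRF3 is expressed in AgRP neurons of mice with AgRP-IRES-Cre. The defining marker Agrp stood at 313 CPM or more in every TRAP library, but markers of other cells were present as well. Slc17a6 of glutamatergic neurons stood at 142 to 281 CPM, Mbp of oligodendrocytes at 157 to 251 CPM and Aqp4 of astrocytes at 38.1 to 217 CPM, while the microglial markers ranged from 0.718 CPM (lowest, P2ry12) to 27 CPM (highest, Cx3cr1).

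Open chromatin falls into 2 broad classes. Promoters with many CpG dinucleotides lie at the start sites of genes that most cells use, are kept free of nucleosomes by general factors such as Sp proteins, NF-Y, NRF1, YY1 and ETS proteins, and tend to be open in every tissue. Enhancers lie away from start sites, hold fewer CpGs, and are opened by factors that differ between cell types or respond to signals, such as AP-1, STAT and IRF proteins. AgRP neurons drive feeding, are activated by fasting and are inhibited by leptin, which acts through the leptin receptor and STAT3.

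The sequences below show both classes among the strong constant peaks. They were read from the mouse genome GRCm38.p6 (mm10) of RefSeq, 5′ to 3′, with any match to one of the 11 motifs searched in capitals. The first 2 belong to peaks of the highest level, the third to one of the strongest CTCF CUT&RUN peaks, and the next 2 to genes whose RNA moved most, all 5 being stretches of the peak upstream of a start site, starting 1 base before it (36 bases for Vgf), with no annotated exon base. The last 2 are the central 200 bases of the intergenic peaks that were most selective for AgRP-positive nuclei. Their positions are chr7:19228134-19228333 (plus strand) for Opa3, chr17:56079434-56079633 (plus) for Hdgfl2, chr17:33890662-33890861 (minus) for Kifc1, chr11:117969187-117969374 (minus) for Socs3, chr5:137030060-137030259 (plus) for Vgf, and chr1:83959718-83959917 and chr4:52328104-52328303 (both plus) for the intergenic peaks.
Opa3: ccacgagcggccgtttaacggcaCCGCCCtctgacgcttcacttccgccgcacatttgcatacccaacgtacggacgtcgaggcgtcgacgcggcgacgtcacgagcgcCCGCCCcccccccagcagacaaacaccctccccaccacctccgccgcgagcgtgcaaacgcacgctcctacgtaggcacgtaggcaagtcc
Hdgfl2: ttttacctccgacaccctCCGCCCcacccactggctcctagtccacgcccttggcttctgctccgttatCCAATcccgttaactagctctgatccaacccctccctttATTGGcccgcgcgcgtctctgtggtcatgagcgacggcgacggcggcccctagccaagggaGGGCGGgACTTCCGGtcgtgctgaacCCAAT
Kifc1: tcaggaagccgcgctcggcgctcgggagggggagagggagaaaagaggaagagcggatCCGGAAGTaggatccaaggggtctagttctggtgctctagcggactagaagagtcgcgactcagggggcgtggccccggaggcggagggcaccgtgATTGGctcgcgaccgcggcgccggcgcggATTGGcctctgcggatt
Socs3: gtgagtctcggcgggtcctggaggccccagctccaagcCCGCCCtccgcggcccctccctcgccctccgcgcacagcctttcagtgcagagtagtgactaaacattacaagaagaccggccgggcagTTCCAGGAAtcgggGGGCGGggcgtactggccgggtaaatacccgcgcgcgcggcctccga
Vgf: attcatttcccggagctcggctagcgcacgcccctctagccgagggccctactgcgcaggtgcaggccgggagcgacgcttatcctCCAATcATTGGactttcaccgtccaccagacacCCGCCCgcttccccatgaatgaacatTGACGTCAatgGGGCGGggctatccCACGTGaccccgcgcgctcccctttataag
intergenic, chromosome 1: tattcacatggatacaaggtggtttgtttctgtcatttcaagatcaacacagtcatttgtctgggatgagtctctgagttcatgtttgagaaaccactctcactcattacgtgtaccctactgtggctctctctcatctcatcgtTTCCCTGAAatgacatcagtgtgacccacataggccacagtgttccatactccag
intergenic, chromosome 4: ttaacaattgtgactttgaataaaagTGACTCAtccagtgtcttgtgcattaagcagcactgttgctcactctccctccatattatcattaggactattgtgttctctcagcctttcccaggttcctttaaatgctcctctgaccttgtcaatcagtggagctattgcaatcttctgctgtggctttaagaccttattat

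In the promoter stretches the capitals mark GC boxes (GGGCGG or its reverse complement CCGCCC, the site of Sp and KLF factors) in all but Kifc1, with 2 each in Opa3, Hdgfl2, Socs3 and Vgf. CCAAT boxes, which NF-Y binds, were 3 in Hdgfl2, 2 in Kifc1 and 2 in Vgf, and an ETS motif (CCGGAAGT) stands in Hdgfl2 and Kifc1. In Socs3 the capitals also mark 1 STAT motif (TTCNNNGAA), and in Vgf 1 cyclic AMP response element (CRE, TGACGTCA) and 1 canonical E-box (CACGTG). The Opa3 stretch held 29 CpGs and the intergenic stretch of chromosome 4 held 0. The intergenic stretches held 1 STAT motif on chromosome 1 and 1 AP-1 motif (TGANTCA) on chromosome 4. A match says only that these letters are present.

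Most strong constant peaks were promoters. Of the 3832, 2992 had the start site of a protein-coding gene inside them or within 1000 bases of either end (78.1%, 95% Wilson interval 76.7 to 79.4%), against 55.8% of strong peaks that varied, 21% of weaker constant peaks and 16.1% of all peaks. In 385 of them (10.0%) start sites of genes on both strands lay in reach, against 5.74% of strong peaks that varied. Among strong peaks at start sites these shares were closer, 12.9% in constant and 10.3% in varying ones. Of the 840 away from start sites, 371 had their centre in an intron, 407 between genes and 62 in an exon. The peaks had a median width of 1014 bases, and the centre of those at start sites lay at a median of 111 bases from the nearest one. Intervals of this kind cover counting error only, and peaks of one genome are not replicates.

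Their base composition was that of CpG-rich promoters. The median GC content was 60.8% (58.0% in strong peaks that varied, 48.0% in all peaks), and the median ratio of observed to expected CpG was 0.718 (0.628 and 0.241). A GC content over 50% with a CpG ratio of at least 0.6 was found in 2680 peaks, or 69.9%, compared with 51.7% of strong peaks that varied and 13.5% of all peaks. Within the strong constant peaks, 83.7% of those at start sites met that definition and 21.1% of the others.

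At a given position the composition of constant and varying peaks was closer. Among strong peaks at start sites, 84.0% of those that varied met the same definition, which lies within the 95% interval of the 83.7% (82.3 to 84.9%). Away from start sites the share was 21.1% in constant and 11.0% in varying strong peaks. The level mattered too. The share of peaks with differences under 0.25 rose from 4.02% of peaks below 2 log2 CPM to 29.9% at 5 to 6, then fell to 20.8% at 6 to 7 and 6.72% (8 of 119 peaks) at 7 and over. At 4 to 5 log2 CPM, 70.3% of constant and 37.9% of varying peaks lay at a start site, at 5 to 6 the shares were 84.7% and 75.7%, and at 6 to 7 they were 91.4% and 90.2%.

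**Figure D1:**
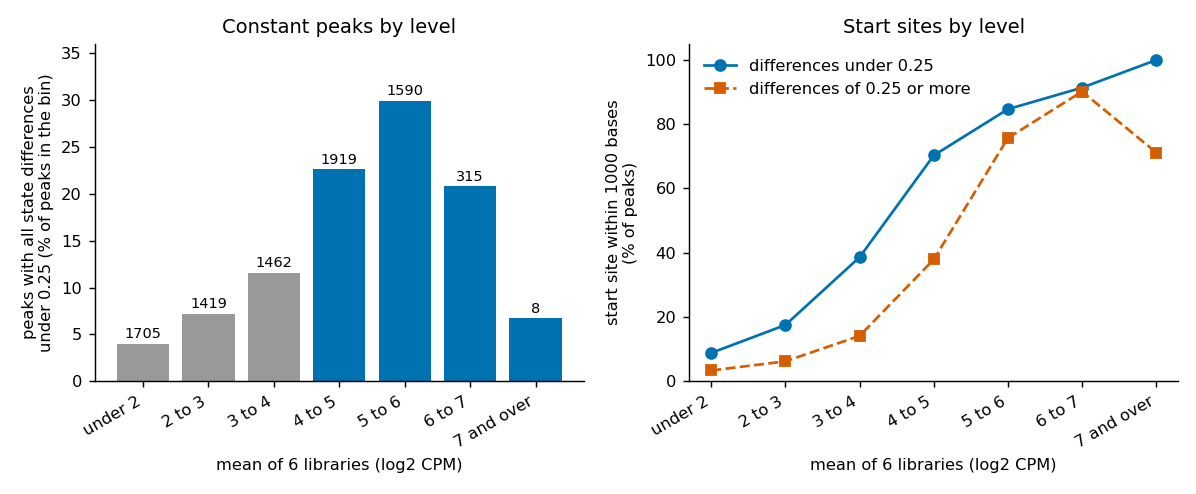
Left, share of peaks whose 3 state differences were under 0.25 (y, percent of the peaks in the bin) by mean level over the 6 libraries (x, log2 CPM), with the number of constant peaks above each bar and the strong constant peaks in blue. Right, share of peaks with a start site within 1000 bases (y, percent) for constant and varying peaks of each bin: the lines are far apart at 4 to 5 (70.3% and 37.9%) and meet at 6 to 7 (91.4% and 90.2%).

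Motifs were searched on both strands in the central 300 bases of each peak. The GC box was found in 60% of strong constant peaks (46.6% of strong peaks that varied, 15.7% of all peaks). The ETS motif stood in 6.47% (3.41% and 1.18%), the YY1 motif (AAGATGGCG) in 3.13% (2.26% and 0.622%) and the NRF1 motif in 1.10% (0.931% and 0.273%). In this window the AP-1 and STAT motifs, the ISRE core and the CCAAT box went the other way. In whole peaks the order against all peaks held for the AP-1 motif (28.0% and 40.8%). It reversed for the STAT motif (21.1% and 19.6%), the ISRE core (9.03% and 7.34%) and the CCAAT box (66.9% and 49.4%). Strong constant peaks were wider than all peaks, with medians of 1014 and 512 bases. Within the window the AP-1 motif stood in 9.19% of strong constant peaks, 16.2% of strong peaks that varied and 32.2% of all peaks, and the STAT motif in 5.74%, 8.25% and 12.3%. The ISRE core (the site of interferon regulatory factors) stood in 2.19%, against 2.40% and 4.07%, and the CCAAT box in 27.3%, against 29.3% and 32.4%. The CRE was found in 1.72%, 2.07% and 0.808%, and the canonical E-box in 7.75%, 6.96% and 4.97%.

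Within one position these differences changed motif by motif. The GC box share at start sites was 69.5% in constant and 70.9% in varying strong peaks, and away from them 26.3% and 16%. The ETS motif stood in 7.85% and 5.35% of the same groups (Wilson interval of the second 4.82 to 5.92%), and the AP-1 motif in 4.48% and 2.72%, the reverse of its order over all positions. Away from start sites the AP-1 motif stood in 26% of constant and 33.2% of varying strong peaks, and the STAT motif in 11.4% and 13.5%. At start sites the STAT motif stood in 4.14% and 4.13%. For the ISRE core the shares were 1.60% and 1.47% at start sites, and 4.29% and 3.57% away from them. GC-rich letters are also more frequent by base composition alone in GC-rich peaks, and that share was not tested.

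The strongest of the strong constant peaks lay at promoters of broadly used genes. The peak of Opa3, which codes for a mitochondrial protein, was the highest (chr7:19227518-19228942) and gave 7.17 and 7.37 log2 CPM in the fed, 7.26 and 7.27 in the fasted and 7.23 and 7.05 in the leptin libraries. At Abtb1 (chr6:88841597-88843004) the values were 7.29 and 7.35, 7.16 and 7.18, and 7.21 and 7.01. The peak of Skil, a regulator of SMAD signalling (chr3:31093749-31095918), gave 7.33 and 7.26, 7.11 and 7.06, and 7.03 and 7.12. In Opa3 the 3 states overlapped, whereas at Abtb1 and Skil both fed libraries stood above all others by a little, which the difference limit of 0.25 allowed. The next were Hdgfl2, which codes for a chromatin reader (mean 7.07), and the shared promoter of Cep170 and Sdccag8, both centrosomal genes (mean 7.04).

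Around the level threshold, peaks at Alg3 with its neighbours and at Pik3c3 were just inside, both with a mean of 4, and peaks at Vegfc and at 3830406C13Rik with Gm49355 were just outside, both with 3.998. Around the difference threshold, the peaks of Rnf126 (mean 6.733) and P4hb (6.61) were just inside with 0.245, and those of Sec16a (7.045) and Dcaf11 with A730061H03Rik (6.798) just outside with 0.25. The limits thus fell in the middle of a continuum. Of the 3832 peaks, 1355 had a largest difference of 0.2 or more and 609 one under 0.1, and another 1598 strong peaks lay between 0.25 and 0.3.

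Constancy between state means was not matched by replicates that lay closer together. The largest difference between the 2 replicates of a state exceeded the largest difference between state means in 3202 of the 3832 peaks (83.6%). The rule limited the state differences but not the replicate differences, and a state mean averages 2 libraries. This share was therefore largely set by the choice and is a description only. The median absolute replicate difference was 0.22 in the fed, 0.14 in the fasted and 0.15 in the leptin libraries, near the 0.20, 0.16 and 0.17 of strong peaks that varied. Fed replicate 1 was lower than fed replicate 2 by a median of 0.18, and that pair differed by 0.25 or more in 45.9% of the peaks, against 24.3% for the fasted and 27.1% for the leptin pair. For a typical one of these peaks the 95% interval of a difference between 2 state means, from the pooled spread of the replicates, reached 0.499 to either side. The interval of the largest state difference lay wholly within 0.25 in 35 peaks (0.913%) and within 0.5 in 899 (23.5%).

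**Figure D2:**
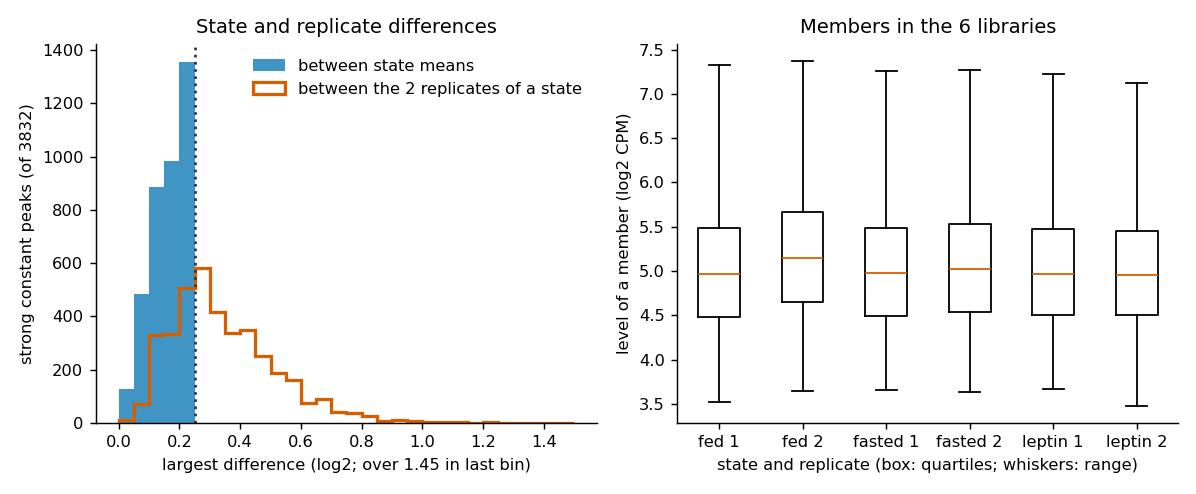
Left, histograms over the 3832 strong constant peaks of the largest difference between state means, which the selection kept under 0.25 (dotted line), and of the largest difference between the 2 replicates of a state (x, log2; y, number of peaks): the replicate differences reach well past the line. Right, level of the peaks in each library (y, log2 CPM; line, median; box, quartiles; whiskers, range), with medians of 4.97 and 5.15 in the fed libraries and 4.96 to 5.02 in the others.

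The choice carried over only in part to libraries it had not used. When the same rule was applied to replicate 1 of every state alone it kept 4026 peaks, of which 788 also met it in replicate 2 (19.6%), while 13.4% of the strong peaks it had not kept did so. Chosen on replicate 2 alone, 2477 peaks were kept, and 31.8% of them met the rule in replicate 1, compared with 24.4% of the strong peaks not kept. In the replicate not used, the largest state difference had a median of 0.39 in peaks chosen on replicate 1 and 0.46 in the other strong peaks, and of 0.33 and 0.42 the other way round. Most peaks chosen on one replicate thus did not meet the rule in the other. Leaving out fed replicate 1 kept 2976 peaks, of which 2070 were among the 3832.

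Within the limit of the rule the peaks were not centred on 0. The fasted mean was below the fed mean in 2690 peaks and above it in 1085, with a median difference of -0.075 log2, and the leptin mean was below the fed mean in 2988. Over all peaks the medians of these 2 differences were -0.035 and -0.04. With library size as the only scaling the median fasted difference of the strong constant peaks was -0.0196.

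The AgRP-positive and AgRP-negative nuclei came from libraries that the rule had not used, and asked whether peaks constant over feeding states were also shared with neighbouring cells. All but 1 of the 3832 peaks matched a peak of that table, giving 3829 distinct peaks, all of which passed the filter of 1 CPM. In the quasi-likelihood test of edgeR (FDR under 0.05 after Benjamini-Hochberg adjustment and a log2 fold change over 0.5), 450 were higher in AgRP-positive nuclei (11.8%), where the background over all 66560 peaks tested was 23.9%. Another 205 were higher in AgRP-negative nuclei (5.35%, background 15.6%). Of strong peaks that varied 29% were higher in AgRP-positive and 6.16% in AgRP-negative nuclei, so the low share of the second kind was common to strong peaks. The median fold change was -0.113 log2 and the median absolute one 0.23, against 0.333 in strong peaks that varied and 0.665 over all peaks tested. Scaling by library size alone shifted the median of all peaks by about as much as that, from -0.000356 to 0.163, and that of the strong constant peaks to 0.0504, with 552 higher and 56 lower. Calls higher in AgRP-positive nuclei then made up 90.8% of calls instead of 68.7%.

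Peaks at and away from start sites behaved differently in this comparison. At start sites 70 of 2989 peaks were higher in AgRP-positive nuclei (2.34%) and 172 in AgRP-negative nuclei (5.75%). Away from start sites 380 of 840 were higher in AgRP-positive nuclei (45.2%) and 33 in AgRP-negative nuclei (3.93%), with a median fold change of 0.365 log2. Strong peaks that varied showed the same split, with 2.17% and 63.0% higher in AgRP-positive nuclei at and away from start sites. In AgRP-negative nuclei 7.18% and 4.86% of them were higher. Median levels of the constant peaks away from start sites were 12.8 and 13 CPM in the AgRP-negative and 19.9 and 20.5 CPM in the AgRP-positive libraries, whereas at start sites they were 34.0 and 35.2 CPM and 31.2 and 31.6 CPM. The rule had asked for a high level in AgRP-positive nuclei of the feeding experiment, so that peaks open mainly in other cells could hardly enter, and the part this has in the counts was not tested.

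**Figure D3:**
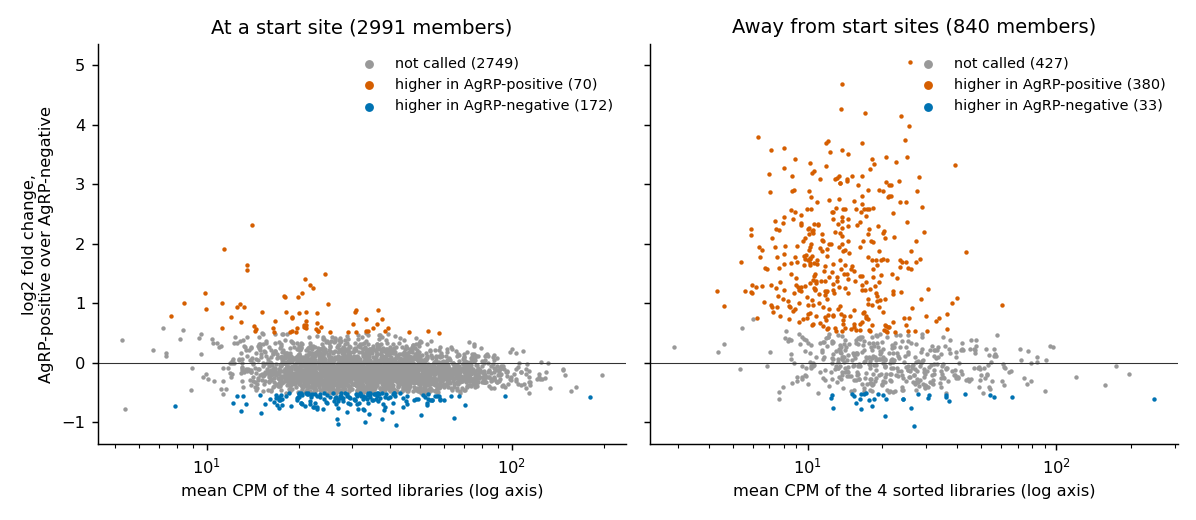
Log2 fold change between AgRP-positive and AgRP-negative nuclei (y) against mean CPM of the 4 sorted libraries (x, log axis), 1 point per strong constant peak with a match, at start sites (left, 2991 peaks, 2 of which share a match with another) and away from them (right, 840). Called peaks are coloured by direction: 70 and 172 at start sites, 380 and 33 away from them.

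The largest gains in AgRP-positive nuclei were at enhancer-like positions with few CpGs. The intergenic peak chr1:83959417-83960218, 324605 bases from the start site of Pid1, gave 1.97 and 1.07 CPM in the AgRP-negative and 51.6 and 49.1 CPM in the AgRP-positive libraries (log2 fold change 5.05, SE 0.26, adjusted p = 3.9e-75 by edgeR). Across feeding states the same peak gave 6.18 and 5.67 log2 CPM in the fed, 6.23 and 5.82 in the fasted and 5.96 and 5.84 in the leptin libraries. The states overlapped at this peak, and replicate 1 was above replicate 2 in each. At chr4:52327907-52328500, 111039 bases from Smc2, the AgRP-negative libraries gave 1.35 and 0.71 CPM and the AgRP-positive ones 30.3 and 23.0 CPM. A peak inside an intron of Brwd3 (chrX:108785428-108786441) gave 1.60 and 1.07 CPM against 25.8 and 25.8 CPM. Their fold changes were 4.68 and 4.27 log2, and their GC contents 41.6% and 35.6%.

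Losses in AgRP-positive nuclei were smaller. The largest was at an exon of Rin2, a gene for a RAB5 exchange factor (chr2:145860076-145860963), with 35.9 and 36.5 CPM in AgRP-negative and 17.6 and 17.2 CPM in AgRP-positive nuclei (log2 fold change -1.06, SE 0.17, adjusted p = 4.3e-09 by edgeR). The start-site peak of Atrnl1 (chr19:57610333-57611905) fell from 59.3 and 53.0 CPM to 25.8 and 28.3 CPM. That of Stx16, a syntaxin of the Golgi (chr2:174075811-174076579), fell from 38.3 and 34.1 CPM to 16.6 and 18.7 CPM. In all 3 the groups did not overlap.

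Some genes that mark AgRP neurons had a strong constant peak, at a share near that of all genes. Of 12 such genes listed, 4 had one at a start site, and 7 only a strong peak that varied, Agrp and Npy among them. Of the listed genes with a strong peak there 36.4% had a constant one, against 32.9% of all protein-coding genes. Ghsr, the ghrelin receptor (chr3:27370917-27372491), gave 5.40 and 4.94 log2 CPM in the fed, 5.25 and 5.02 in the fasted and 5.08 and 4.94 in the leptin libraries. In the sorted nuclei its peak gave 11.1 and 12.0 CPM in AgRP-negative and 31.6 and 29.3 CPM in AgRP-positive libraries (log2 fold change 1.40, SE 0.19, adjusted p = 6.6e-12 by edgeR). So the Ghsr promoter was open more in AgRP-positive nuclei while its state means stayed within 0.16. Acvr1c, an activin receptor (chr2:58357175-58358343), rose from 14.5 and 11.7 CPM to 35.3 and 27.7 CPM (1.26 log2, SE 0.18), and Gad1, an enzyme of GABA synthesis (chr2:70560914-70562718), from 6.77 and 10.9 CPM to 15.1 and 15.1 CPM (0.77 log2, SE 0.23, adjusted p = 0.00381 by edgeR). The Gad1 call was lost without AgRP-negative replicate 1 (0.46 log2) and with DESeq2. Gad2, the other such enzyme, was called as well, with 0.67 log2.

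Strong constant peaks were spread over housekeeping and neuronal lists alike. Over all protein-coding genes with a strong peak at a start site, 3376 had a constant one and 6876 only varying ones, so 32.9% had a constant one. For cytosolic ribosomal proteins the share was 39.3% (22 of 60 listed genes constant, 34 varying), and for proteasome subunits 50.0% (14 and 14). The share was 22.2% for housekeeping reference genes (4 and 14), 29.2% for RNA polymerase II and general transcription factors (7 and 17) and 25% for CTCF and cohesin (3 and 9). It was 28.6% for pan-neuronal genes (4 and 10), 28.6% for immediate early genes (4 and 10), 36.4% for genes of leptin signaling and its feedback (4 and 7), 42.1% for endoplasmic reticulum stress genes (8 and 11) and 14.3% for clock genes (2 and 12). None of the 8 genes of the interferon regulatory factor list with a strong peak had a constant one. No gene of the POMC neuron, glutamatergic, astrocyte, oligodendrocyte, microglial, tanycyte and ependymal or endothelial lists had one, and few of those had any strong peak.

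Values at named promoters show what constant meant here. Rps19, a ribosomal protein gene (chr7:24883825-24885031), gave 6.56 and 6.77 log2 CPM in the fed, 6.62 and 6.59 in the fasted and 6.59 and 6.41 in the leptin libraries. Psmd3, a subunit of the proteasome cap (chr11:98682001-98683163), gave 5.45 and 5.70, 5.65 and 5.77, and 5.56 and 5.51. Wapl, which releases cohesin from DNA (chr14:34673339-34674716), gave 5.79 and 5.93, 5.70 and 5.72, and 5.71 and 5.62. At Rps19 and Psmd3 the states overlapped, and at Wapl the 2 fed libraries were the highest. The neuronal tubulin gene Tubb3 (chr8:123410991-123411936) ranged from 4.97 to 5.62, with the highest value in fed replicate 2 and the lowest in leptin replicate 2. Fosl2, an immediate early gene of the AP-1 family (chr5:32135060-32136376), gave 5.94 and 6.22 in the fed and 6.49 and 6.07 in the fasted libraries. In the sorted nuclei the peaks of Rps19, Psmd3, Wapl and Tubb3 were not called, and Fosl2 was higher in AgRP-positive nuclei by 0.53 log2 (SE 0.13, adjusted p = 0.000455 by edgeR), a call lost with DESeq2 (0.49) and without AgRP-negative replicate 2 (0.42) or AgRP-positive replicate 1 (0.38). Nr1d1, a clock repressor (chr11:98773698-98774399), was lower in AgRP-positive nuclei by 0.82 on the log2 scale, with 34.0 and 39.4 CPM against 20.3 and 21.4 CPM.

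CTCF, an architectural protein that blocks loop extrusion, was profiled by CUT&RUN in AgRP nuclei and in cerebellum, with 1 sample per list. A CTCF peak of AgRP nuclei overlapped 1849 strong constant peaks (48.3%), 48.4% of strong peaks that varied and 22.6% of all peaks. For the cerebellum list labelled 50K nuclei the overlap was 70.5%, 54.4% and 22.5%. At start sites the cerebellum overlap was 80.1% in constant and 78.5% in varying strong peaks, and away from them 36.3% and 23.9%. Both tissues overlapped 1494 of the strong constant peaks (39.0%). Few of the overlaps were strong in the AgRP list. At a -log10 q of at least 10, 138 strong constant peaks (3.60%) kept one there, below the 4.68% of strong peaks that varied and the 4.47% of all peaks, so that the excess over all peaks was lost. In the cerebellum 50K list 45.2% of strong constant and 35.6% of strong varying peaks kept one.

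The CTCF core motif was rare at these sites. It stood in the central 300 bases of 14 strong constant peaks (0.365%), compared with 0.397% of strong peaks that varied, 4.73% of weaker constant peaks and 2.83% of all peaks. In whole peaks the share was 2.19%. The strongest AgRP CTCF overlaps among the strong constant peaks were an intergenic peak 27184 bases from Pdia6 (chr12:17239072-17239650, fold enrichment 23.3), an intergenic peak 114513 bases from Sfswap (chr5:129386314-129387101, 22.3) and the Kifc1 promoter (chr17:33890465-33891033, 18.1). The first of these was also higher in AgRP-positive nuclei, with 40.5 and 34.6 CPM against 5.78 and 7.34 CPM (log2 fold change 2.51, SE 0.21), and overlapped no cerebellum 50K peak, whereas the other two did with enrichments of 31.6 and 20.5.

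IRF3, a transcription factor of innate immunity, was profiled in AgRP nuclei of mice with a phosphomimetic IRF3-2D transgene, in 1 sample. An IRF3 peak overlapped 1301 strong constant peaks (34.0%), 31.4% of strong peaks that varied and 10.8% of all peaks. From 4 to 7 log2 CPM the overlap grew with the level in constant and varying peaks alike, from 21.8% and 18.2% at 4 to 5 to 69.5% and 71.5% at 6 to 7. At 7 and over it was 37.5% of only 8 constant peaks and 74.8% of varying ones. At start sites it was 36.9% in constant and 41.7% in varying strong peaks, and away from them 23.5% and 18.5%. The highest IRF3 signals lay at Psmb6, a catalytic proteasome subunit (chr11:70525066-70525587, maximum signal 77), at Eif3d, a translation initiation factor (chr15:77970297-77971338, 71), and at Prcc (chr3:87884621-87886121, 69). The IgG control was not analysed here, so how much of this overlap is signal that follows open chromatin was not tested.

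The RNA of the same neurons was measured in other samples, and asked whether genes with a constant promoter peak had constant RNA. A strong constant peak lay at a start site of 3376 protein-coding genes, of which 3118 were in the count table and 2971 passed a mean of 1 CPM (95.3%, the same share as for genes with only varying strong peaks). Their median level per length was 10.4 RPKM (reads per length of the gene and depth of the library) in fed, 11.2 in fasted and 11.2 in leptin samples, near the 10.9, 11.3 and 11.3 of genes with only varying strong peaks and above the 3.30, 3.18 and 3.16 of genes with only weaker peaks. In ribosome pull-downs from pooled arcuate nuclei fewer tagged cells and less RNA per cell cannot be told apart.

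With fasting, genes with a constant promoter peak were called higher at a share near the background and lower at a share below it. By edgeR, with an FDR under 0.05 and a log2 fold change over 0.5, 89 of the 2971 were higher in fasted than in fed samples (3.00%), against a background of 2.82% over the 13401 genes tested, and 15 were lower (0.505%, background 1.07%). With leptin, 26 were higher than in fasted samples (0.875%, background 1.19%) and 13 lower (0.438%, background 0.634%). Genes with only varying strong peaks gave 2.65% and 0.895% for fasting and 1.19% and 0.795% for leptin. Replicate numbers were taken to pair the RNA samples. With the number as a block the fasting counts rose to 143 higher (4.81%, background 4.40%) and 27 lower (0.909%, background 2.54%). The leptin counts rose to 38 higher (1.28%, background 1.81%) and 22 lower (0.740%, background 1.10%). Scaling by library size alone gave 30 and 8 for fasting, and 11 and 4 for leptin. Both comparisons use the same fasted samples.

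**Figure D4:**
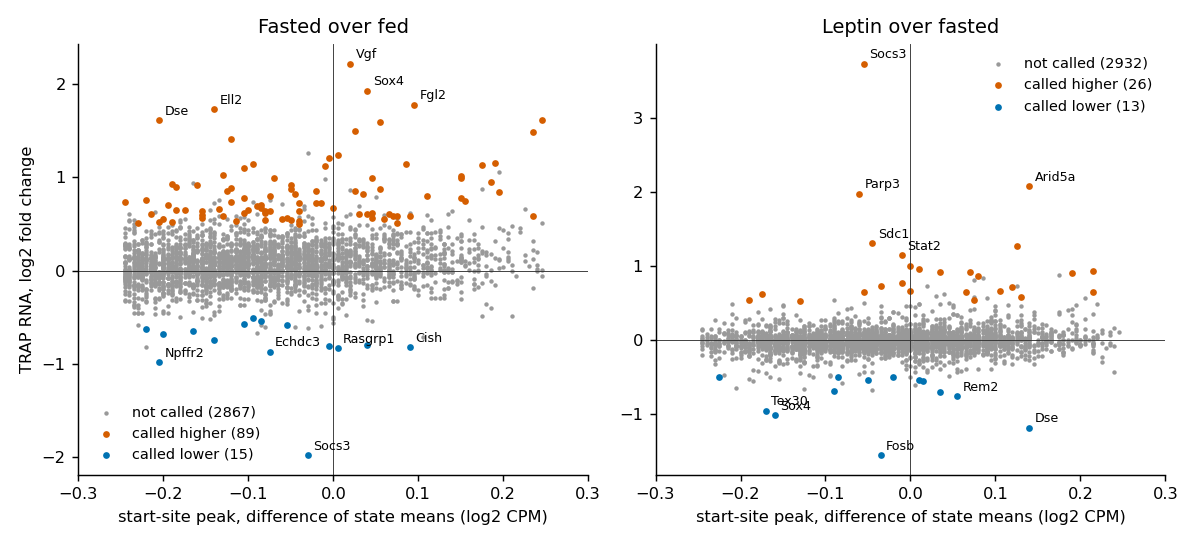
Difference of state means of the start-site peak (x, log2 CPM, kept within 0.25 by the selection) against log2 fold change of the TRAP RNA (y) for the 2971 tested genes with a strong constant peak, fasted over fed (left) and leptin over fasted (right); where a gene had several such peaks the highest is shown. Coloured points passed the test (89 and 15 genes, 26 and 13 genes), and the named genes are labelled: Vgf and Socs3 lie far from 0 on the y axis and near 0 on the x axis.

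Socs3, the feedback inhibitor that STAT3 induces, had the largest changes in both directions. Its promoter peak (chr11:117968417-117970130) gave 5.97 and 6.17 log2 CPM in the fed, 5.83 and 6.25 in the fasted and 6.08 and 5.89 in the leptin libraries, with the states overlapping. Its RNA stood at 9.05, 13 and 5.88 CPM in the fed samples, at 2.71, 2.54, 2.39 and 1.79 CPM in the fasted samples and at 35.7, 30.7, 35.5 and 23.8 CPM after leptin. No sample of one state overlapped another. The log2 fold change was -1.98 for fasting (SE 0.25, adjusted p = 0.00169 by edgeR) and 3.73 for leptin over fasted (SE 0.25, adjusted p = 3.6e-05 by edgeR). This is the promoter with the STAT motif shown above. In the sorted nuclei the peak was higher in AgRP-positive nuclei, with 46.6 and 46.9 CPM against 27.6 and 28.9 CPM (0.73 log2, SE 0.15).

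Vgf, which codes for a neuropeptide precursor, rose most with fasting. Its promoter peak gave 4.77 and 5.02 log2 CPM in the fed, 4.97 and 4.86 in the fasted and 4.99 and 4.70 in the leptin libraries. The RNA stood at 366, 452 and 375 CPM in fed, at 1557, 1934, 2344 and 1599 CPM in fasted and at 1361, 1799, 2865 and 1670 CPM in leptin samples (2.22 log2 for fasting, SE 0.27, adjusted p = 0.00154 by edgeR). Fed samples lay below all others, while fasted and leptin samples overlapped. Sox4, a transcription factor of neuronal differentiation, rose from 13.3 ± 2.45 CPM (SD, n = 3) to 50.5 ± 9.97 CPM (n = 4) and fell to 24.8 ± 2.66 CPM (n = 4) with leptin, and no 2 states overlapped. Ell2, an elongation factor of RNA polymerase II, rose by 1.73 log2, Fgl2 by 1.78 and Dse, an enzyme of dermatan sulfate synthesis, by 1.61. Fgl2 rose again with leptin (1.26 log2), a call lost without fasted replicate 2, 3 or 4 or leptin replicate 1, 2 or 3, and Dse fell (-1.19). With the replicate block and all samples Fgl2 was called higher after leptin as well (1.22 log2).

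**Figure D5:**
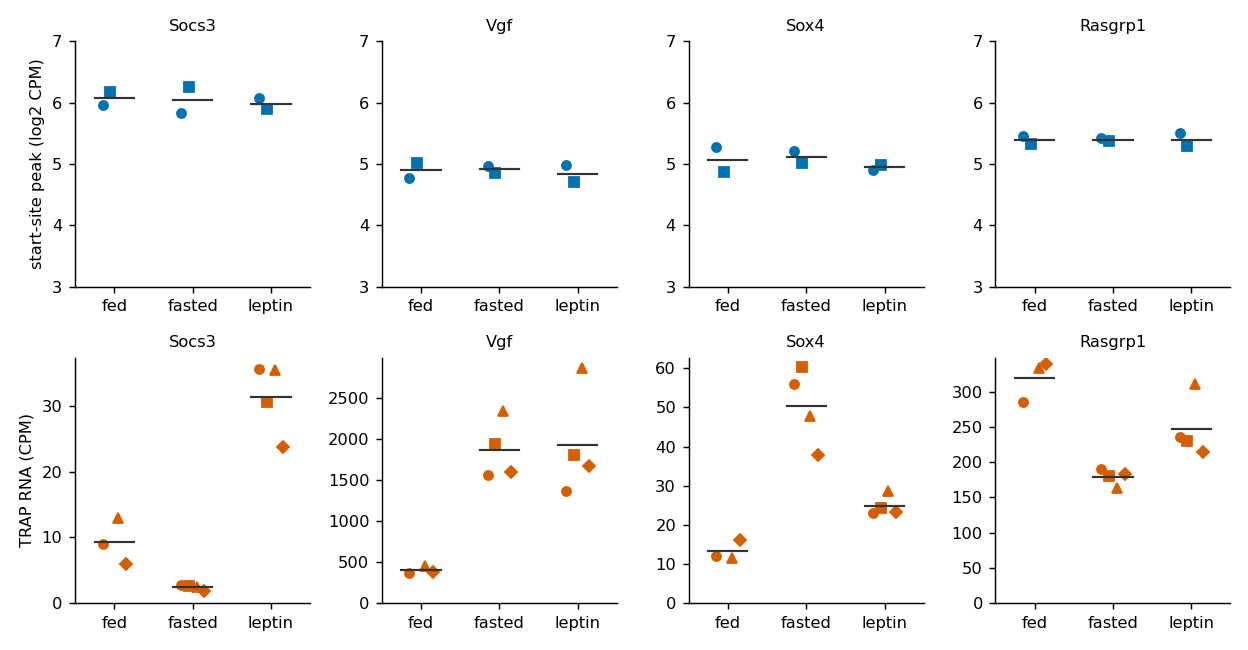
Start-site peak (upper row, log2 CPM, axis from 3 to 7, 2 libraries per state) and TRAP RNA (lower row, CPM, 3 fed, 4 fasted and 4 leptin samples) of Socs3, Vgf, Sox4 and Rasgrp1. Points are libraries, with one symbol per replicate number, and lines are means: the peaks stay within 0.25 log2 between states by selection, while the RNA of Socs3 goes from 9.30 to 2.36 to 31.4 CPM.

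Falls with fasting were fewer. Rasgrp1, a RAS activator, had a peak whose state means differed by at most 0.01 and fell from 320 ± 29.5 CPM (SD, n = 3) to 180 ± 12.0 CPM (n = 4), by 0.83 on the log2 scale (SE 0.13, adjusted p = 0.00414 by edgeR). Npffr2, a neuropeptide FF receptor, fell by 0.98 on the log2 scale and Cish, another feedback inhibitor of cytokine signaling, by 0.82. The call of Npffr2 was lost without fasted replicate 2 or 3 or any one fed sample, and that of Cish without fasted replicate 1, 2 or 3 or fed replicate 1 or 3. Fits that left out a sample had no replicate block. With all samples and the block both genes were called lower in fasted samples (adjusted p = 0.00645 and 0.00328 by edgeR). The block fit also called both higher after leptin, Npffr2 by 0.92 log2 and Cish by 0.74. Without the block neither gene was called for leptin. Echdc3 fell by 0.87 on the log2 scale near the filter, from 1.62 to 0.893 CPM, and that call was lost without any one sample but fasted replicate 4.

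After leptin, Socs3 was followed by genes of varied roles. Arid5a, an RNA-binding protein that stabilizes cytokine transcripts, went from 5.36 ± 0.754 to 22.5 ± 3.75 CPM (SD, n = 4 each; 2.07 log2, SE 0.15, adjusted p = 5.8e-05 by edgeR), while its promoter peak had state means within 0.20. Parp3, a DNA repair enzyme, rose from 1.28 ± 0.149 to 5.01 ± 0.767 CPM (1.97 log2). Stat2, a partner of interferon signalling, rose from 6.85 to 15.1 CPM, and Sdc1, a heparan sulfate proteoglycan, from 2.07 to 5.11 CPM. Ptpn1, a phosphatase that limits leptin receptor signalling, rose by 0.52 log2 (SE 0.08), close to the limit of 0.5 and below it without fasted replicate 2 or leptin replicate 3. Falls were seen for Fosb, an immediate early gene (18.0 ± 3.82 to 6.09 ± 1.04 CPM), Tex30 and Rem2, a GTPase that limits calcium channels. The calls of Rem2 (without fasted replicate 2 or 3) and Sdc1 (without fasted replicate 2) rested on single samples in the fits without the block. With the replicate block and all samples both were called.

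Some gene lists were called more often than the background and others not at all. The lists were chosen with earlier results of these data known, so their shares are a description only. Of 12 genes of leptin signaling and its feedback, all tested, 3 were lower in fasted samples (25%, against 1.07% of all genes tested) and 5 higher after leptin (41.7%, against 1.19%), and 2 of each set, Socs3 and Cish for fasting and Socs3 and Ptpn1 for leptin, had a strong constant peak. With the replicate block 6 were higher after leptin, 3 of them with a strong constant peak (Socs3, Cish and Ptpn1). Of 20 endoplasmic reticulum stress genes 5 were higher in fasted samples (25%, against 2.82%), 2 of them with a strong constant peak. One was Manf, a secreted stress factor, which went from 58.7 ± 4.00 to 117 ± 12.0 CPM (0.99 log2, SE 0.12, adjusted p = 0.00144 by edgeR). Of 17 immediate early genes tested 5 were higher in fasted samples (29.4%, against 2.82%), none with a strong constant peak. With the replicate block 8 were higher and 1 lower, and 3 of those higher had a strong constant peak, namely Fosb (0.75 log2, adjusted p = 0.00444 by edgeR), Egr1 (0.99 log2, adjusted p = 0.00834) and Arc (0.62 log2, adjusted p = 0.00521). After leptin 5 were lower (29.4%, against 0.634%), 1 of them (Fosb) with a strong constant peak, and 2 were higher (11.8%, against 1.19%), neither with one. The block also gave 9 endoplasmic reticulum stress genes higher in fasted samples, 3 of them with a strong constant peak. Of all genes tested it called 4.40% higher and 2.54% lower in fasted samples. Of 10 genes tested of the interferon regulatory factor list 1 was lower in fasted samples (10%, against 1.07%) and 1 higher after leptin (10%, against 1.19%). Neither had a strong constant peak. Of 12 clock genes tested 3 were lower in fasted samples (25%, against 1.07%) and 1 higher after leptin (8.33%, against 1.19%). None of these had a strong constant peak. With the block 5 clock genes were lower in fasted samples and 2 higher after leptin. For fasting 1 of 18 housekeeping reference genes was higher (5.56%, against 2.82%), as was 1 of 8 POMC neuron genes (12.5%). Of 3 glutamatergic genes 1 was lower (33.3%, against 1.07%). In edgeR no gene of the ribosomal protein (56 tested), proteasome (31), pan-neuronal (15) or AgRP neuron list (12) was called in either contrast. For fasting the unadjusted p was nevertheless under 0.05 in 3, 21, 1 and 8 of them in that order, and with leptin in 0, 0, 0 and 3. With the replicate block the fasting calls were 2, 2, 0 and 6, and with DESeq2 they were 0, 2, 0 and 4. With leptin the block called 2 AgRP neuron genes and none of the other 3 lists, and DESeq2 called none. Of all genes tested the block called 1.81% higher and 1.10% lower with leptin. Without the block Ghsr missed the threshold, with 0.66 log2 (adjusted p = 0.0511 by edgeR), and with the block it was called higher in fasted samples (0.75 log2). The microglial marker Cx3cr1 averaged 19.1, 12.4 and 14.3 CPM and the astrocyte marker Aqp4 142, 75.5 and 87.6 CPM in fed, fasted and leptin samples. Their part in the changes above was not tested.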

How the data were processed

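ATAC-seq reads had been aligned to mm10 with Bowtie2 and peaks called with MACS2, per the labels and the methods of the study. The authors deposited raw counts per peak for the feeding and the sorted libraries, log2 CPM per peak normalized in edgeR, and raw counts per gene from HISAT2 alignments and featureCounts. The CTCF lists give the fold enrichment and the -log10 q of each peak as deposited from MACS2, and the IRF3 list a maximum signal per peak as deposited from SEACR. Tool versions were not given in the sources used here.

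Members were found from the deposited log2 CPM. The members and gene lists were chosen with earlier results of these data known. Sorted nuclei and RNA were tested on the deposited counts with the quasi-likelihood test of edgeR 4.0.16 in R 4.3.3, with TMM scaling, a mean of at least 1 CPM, and a call at an FDR under 0.05 with a log2 fold change over 0.5. Fits were tested on simulated data. RNA samples of all 3 states entered one fit. Peaks of both tables were matched where at least 50% of the shorter one overlapped, and CUT&RUN peaks by 1 base or more. Start sites and exons came from GENCODE vM21, and sequences from RefSeq. RPKM used the deposited gene lengths. Counts per library were 8685497 to 11177208 for sorted nuclei and 25581041 to 54511107 for RNA. The labels do not say whether libraries came from separate animals. The study calls its TRAP and feeding-state ATAC-seq libraries independent biological replicates, each from 4 pooled mice. P-values measure the spread between these libraries.

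Replicate numbers in the labels were taken to pair the RNA samples, since same-numbered samples of different states deviated from their group means together (correlations 0.536 to 0.814). Some samples with different numbers did so as well, namely fed replicate 3 with leptin replicate 2 (0.642) and fasted replicate 3 with leptin replicate 2 (0.62). For the sorted nuclei same-numbered libraries correlated at 0.0988, and both sorts came from the same pooled samples in the methods of the study.

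Named peaks were the 5 of highest level, up to 3 per gene list by level, those nearest each threshold, the 3 with the strongest CTCF and IRF3 signal, and the 3 called peaks with the largest change each way between sorted nuclei whose libraries did not overlap. Named RNA genes were the 5 called genes with the largest change each way and no overlap, and genes of named list members. Gad2 and the marker genes were added after their values were seen. Alternatives were other scalings, DESeq2 1.42.0, no filter on low counts, the replicate block, other thresholds, leaving out each library, and other overlaps, start-site definitions and motif windows. The POMC neuron RNA, the whole arcuate RNA and the IgG control were not analysed here.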

Additional observations from a re-analysis of the deposited data

Results flagged for a closer look

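Among the 96 groups of 4 RNA samples of the 48 named genes, 8 held 1 sample far from the other 3 by Dixon's test, which chance does in about 1 of 20 groups. Among samples that received leptin, Stat2 stood at 19.4 CPM in replicate 1 (13.6 to 13.7 in the others), Rps6 at 25.2 CPM in replicate 1 (60 to 67.1), and Egr1 at 43.6 CPM in replicate 1 (58.5 to 60.8). In the same group Rem2 stood at 4.94 CPM in replicate 4 (6.06 to 6.17), Arc at 13.8 CPM in replicate 4 (10.7 to 11.0), and Manf at 142 CPM in replicate 3 (108 to 114). In fasted samples Ghsr stood at 234 CPM in replicate 2 (326 to 328) and Creld2 at 13.4 CPM in replicate 4 (16.1 to 16.7). Rps6 was also lowest in replicate 1 of the fed (20.3 CPM) and fasted (24.2 CPM) samples.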

How the results depend on the processing

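The number of strong constant peaks fell from 3832 to 1913 with a level of at least 5, to 2477 with differences under 0.2, and to 2477 on replicate 2 alone. With library size as the only scaling, 56 peaks were higher in AgRP-negative nuclei. For the RNA, counts with library size alone were 30 higher and 8 lower for fasting and 11 higher and 4 lower for leptin, and with the replicate block 143 and 27 for fasting and, for genes lower with leptin, 22. Leaving out single libraries gave 41 to 124 higher and 8 to 20 lower for fasting, and 18 to 32 higher and 8 to 14 lower for leptin. Counts higher with fasting moved by over 1.5 times without fasted replicate 3 (41), fed replicate 4 (45) or fed replicate 1 (47), and counts lower without fed replicate 1 or 3 (8 each), or fed replicate 4, fasted replicate 2 or fasted replicate 3 (9 each). Those lower with leptin did so without fasted replicate 2 or 3 (8 each). At a -log10 q of at least 10 the CTCF share was 3.60% for AgRP and 45.2% for cerebellum 50K, and with only IRF3 peaks at or above the median signal 23.2%. A start site inside the peak was found in 76.1%. Either that or a centre up to 1000 bases upstream of a start site was found in 76.6%, a share that includes the first. In whole peaks, which are longer than the window, motif shares were 2.19% (CTCF core), 81.3% (GC box), 2.35% (NRF1), 12.4% (ETS), 5.90% (YY1), 66.9% (CCAAT), 4.02% (CRE), 28.0% (AP-1), 21.1% (STAT), 9.03% (ISRE core) and 24.1% (E-box). For the RNA counts the cause was not tested. Of the single peaks and genes with an FDR under 0.05, none changed direction under the alternatives run. For the sorted nuclei the replicate block gave 451 and 209. With 2 libraries per state, the constancy of a single peak is limited by the replicate spread given in the report.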
